A study of Mus musculus with 8 samples.

Results

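The Rab GTPase genes were examined in splenic cDC1, the conventional dendritic cells that take up cell-associated antigen and present it to CD8 T cells. Members were all genes on the array whose symbol is Rab followed directly by a number, with at most 1 letter after it. This gave 56 of the 19505 named genes, each with 1 probe set, and left out 9 partner genes of like name, such as Rab11fip1 and Rab3gap1. The 8 arrays come from unstimulated wild-type C57BL/6 mice: flow sorting split the cDC1 into a TMRM/MG-high fraction (4 arrays) and a TMRM/MG-low fraction (4 arrays). TMRM accumulates in mitochondria according to their membrane potential, and MG is not spelled out in the labels. The age and sex of the mice, and whether a replicate is 1 mouse or a pool, are not stated in the labels. The p-values therefore weigh the fractions against the spread of these arrays alone, and that spread may be technical.

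Rab proteins are small GTPases that switch between a GDP-bound state in the cytosol and a GTP-bound state on a membrane. Exchange factors (GEFs) load them with GTP, GTPase-activating proteins (GAPs) turn them off, GDI extracts them from membranes, and effectors bound to the active form tether, move and fuse vesicles. Each Rab marks its own compartments, and in dendritic cells this traffic carries antigen from endosomes and phagosomes, MHC molecules to the surface, and cytokines out of the cell. Rab43 is known for its part in the cross-presentation of cell-associated antigen by cDC1.

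Rab1a, Rab1b, Rab2a, Rab21, Rab28, Rab29 and Rab9 were higher in the TMRM/MG-high fraction, by 0.36 to 0.58 on the log2 scale, and no Rab gene was lower. These are 7 of 56 genes, or 12.5%, against 5.28% of all 22206 tested probe sets called higher, 2.96% called lower and 8.25% called either way (limma, two-sided, adjusted p under 0.05 over all tested probe sets). Among all probe sets the calls were 64.1% higher, and a further quantile normalization turned the counts from 1173 higher and 658 lower to 852 and 858; the Rab count was then 4 higher and 0 lower. The count of 7 fell to 1 without high replicate 2 or without high replicate 3, to 3 without low replicate 1, 2 or 4, and to 4 without high replicate 4. Calls fell among all probe sets too: from 1173 higher to 183 and 255 without high replicates 2 and 3, to 367, 437 and 499 without low replicates 1, 2 and 4, and to 395 without high replicate 4. With the mean level of the poly-A spike-in RNAs as a covariate, limma called 0 Rab genes (1 higher and 1 lower had an unadjusted p under 0.05) and 0 of all probe sets (504 higher and 628 lower). Every high array had a lower spike-in level than every low array, so this fit can hardly separate that level from the fraction.

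Differences were small and mostly positive. Of the 56 genes 42 had a positive difference, or 75%, against 52.1% of all tested probe sets, and the median was 0.14 against 0.0093 (0.077 without high replicate 2). In 14 Rab genes every high array lay above every low array, against 9.7% of all probe sets, and in 1, Rab26, every high array lay below, against 6.37%. At an unadjusted p under 0.05, 17 were higher and 1 was lower, where the shares of all probe sets are 15.3% and 10.1%.

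Signal level moved with the direction. The negative control probe sets had a median of 6.80 and a 95th percentile of 9.92 over the arrays, and 50 Rab genes lay above the median and 22 above the 95th percentile. Above that percentile, 4 of 22 Rab genes were called higher, against 12.4% of the 4616 probe sets there, and their median difference was 0.19 against 0.10. Positive differences were in 17 of these 22, against 67.1% of the probe sets there. At or below that percentile, 3 of 34 were called higher, against 3.41% of the other 17590 probe sets, with medians of 0.069 and -0.0094. Here 25 of the 34 were positive, against 48.1% of those probe sets.

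**Figure D1:**
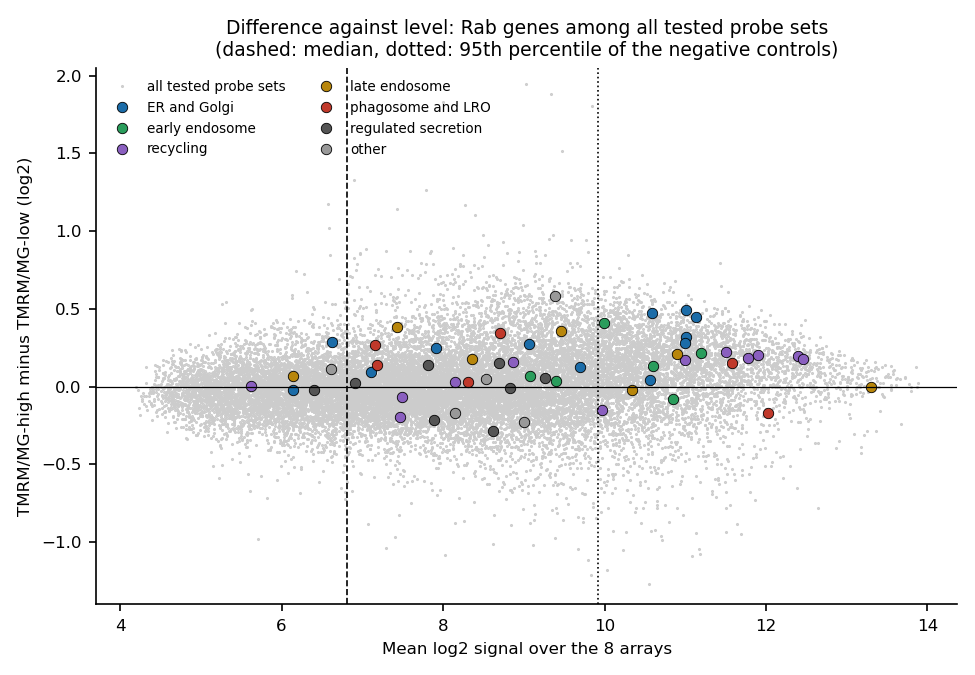
Each point is a probe set, with its mean log2 signal over the 8 arrays on the horizontal axis and its log2 difference, high minus low fraction, on the vertical axis; grey points are all tested probe sets and coloured points the 56 Rab genes by role (LRO, lysosome-related organelle). The dashed and dotted lines mark the median (6.80) and 95th percentile (9.92) of the negative controls. To the right of the dotted line 17 of 22 Rab genes lie above 0, as do 67.1% of all tested probe sets there.

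Other values of the arrays differed between the fractions too. The mean of the 4 poly-A spike-in RNAs was 7.27 to 7.85 on the low and 5.99 to 6.96 on the high arrays, and GC-rich background probe sets had means of 8.94 to 9.17 and 8.55 to 8.60. Of 11 cDC1 markers 9 lay above the 95th percentile of the negative controls, and none of the 11 was called. Differences were positive in 6 and negative in 5 (2 had an unadjusted p under 0.05 with a positive and 1 with a negative difference). Xcr1 was at 12.51 in the low and 12.65 in the high fraction, whereas Clec9a was at 11.99 and 11.78. Plasmacytoid dendritic cell genes were called higher in 11 of 13, against 5.28% of all probe sets. The mean of the list was 9.23 to 9.41 on the low and 9.95 to 10.38 on the high arrays. T and NK cell genes were called lower in 3 of 8 measured, against 2.96% of all probe sets. The mean of these 8 was 9.15 to 10.08 on the low and 8.78 to 9.44 on the high arrays. All 8 differences were negative, 6 of them at an unadjusted p under 0.05 by limma, where 10.1% of all probe sets were lower. Of 7 neutrophil genes 1, Csf3r, was called lower, against 2.96% of all probe sets. The mean of the 7 was 9.28 to 10.27 on the low and 8.49 to 9.50 on the high arrays. Csf3r itself was at 10.66 to 10.88 on the low and 9.93 to 10.05 on the high arrays. All 7 differences were negative, whereas 52.1% of all tested probe sets had a positive one. By limma 3 of the 7 were lower at an unadjusted p under 0.05, where the share of all probe sets is 10.1%. Of 11 macrophage and monocyte genes 1, Ly6c1, was called higher, against 5.28% of all probe sets. Its difference was 0.72, beside 0.85 for Ly6c2, which was counted in the plasmacytoid list. None of 6 B cell, 8 cDC2 and 4 erythroid and platelet genes was called either way. By limma 1 cDC2 gene was higher and 1 lower at an unadjusted p under 0.05, and 0 of the B cell, erythroid and platelet genes. The part of these genes and controls in the Rab differences was not tested, and in a sorted population fewer cells of a type and less RNA per cell cannot be told apart.

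Upstream sequence was read for the genes that rose. RefSeq promoter windows (GRCm38.p6) were at hand for 47 of the 56 Rab genes and 6 of the 7 that rose. The 250 bases before the annotated start are printed 5′ to 3′ on the gene's strand for Rab1a and Rab1b, close paralogs that both rose, for Rab21, the early endosomal Rab that rose, and for Rab28, which had the largest difference. Capitals mark matches, on either strand, to any of 7 short motifs.
Rab1a, chr11:20201162-20201411, plus strand: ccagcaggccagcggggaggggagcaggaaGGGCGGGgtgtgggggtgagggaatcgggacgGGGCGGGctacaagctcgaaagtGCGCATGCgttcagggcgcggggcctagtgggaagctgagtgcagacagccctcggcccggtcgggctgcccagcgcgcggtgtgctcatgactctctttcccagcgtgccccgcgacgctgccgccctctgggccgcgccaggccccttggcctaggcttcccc
Rab1b, chr19:5106997-5107246, minus strand: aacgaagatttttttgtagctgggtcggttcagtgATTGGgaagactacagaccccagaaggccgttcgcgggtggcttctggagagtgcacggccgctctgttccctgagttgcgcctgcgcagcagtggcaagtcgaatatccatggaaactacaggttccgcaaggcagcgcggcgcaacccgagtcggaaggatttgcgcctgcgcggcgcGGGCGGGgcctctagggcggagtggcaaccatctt
Rab21, chr10:115315592-115315841, minus strand: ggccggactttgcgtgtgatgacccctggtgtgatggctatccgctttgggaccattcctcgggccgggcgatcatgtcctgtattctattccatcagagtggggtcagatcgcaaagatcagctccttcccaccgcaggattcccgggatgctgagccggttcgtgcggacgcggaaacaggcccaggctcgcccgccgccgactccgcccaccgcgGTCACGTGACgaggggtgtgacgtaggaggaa
Rab28, chr5:41708180-41708429, minus strand: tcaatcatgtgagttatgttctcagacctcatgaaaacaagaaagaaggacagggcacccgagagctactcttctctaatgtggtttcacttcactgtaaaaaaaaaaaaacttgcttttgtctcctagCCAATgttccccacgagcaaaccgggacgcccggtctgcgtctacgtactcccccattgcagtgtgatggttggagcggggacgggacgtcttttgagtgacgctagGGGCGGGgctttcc

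The motifs were the E-box CACGTG, its extended CLEAR form GTCACGTG (bound by TFEB, a regulator of lysosomal genes; each match overlaps an E-box), NRF1 GCGCATGC, ETS CCGGAAG, the CCAAT box CCAAT, the unfolded protein response element TGACGTG and the GC box GGGCGGG. Rab21 held the CLEAR motif on both strands, with the first base 32 bases before the start. At least 1 match to its 8 letters was in 2 of 47 Rab genes and in 1.85% of all 32851 windows. Rab1a held the NRF1 motif 165 bases before its start (2 of 47 Rab genes, 2.26% of windows). GC boxes lay in Rab1a, Rab1b and Rab28, as in 23 of 47 Rab genes and 23.4% of windows, and a CCAAT box in Rab1b and Rab28, also as in 23 of 47 and 33.8% of windows. No motif of the 7 was in all 6 risers with a window. The E-box was in 5 of 47 Rab genes (6.02% of windows), the ETS motif in 3 (6.91%) and the unfolded protein response element in 0 (1.65%). A gene with several windows, as 8 Rab genes have, counts once if any window matches, and these matches are descriptions of letters only.

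Among Rabs of the endoplasmic reticulum and Golgi, Rab1a and Rab1b, which act in transport from the endoplasmic reticulum to the Golgi, and Rab2a, which acts between the same compartments, rose, making 3 of 12 called higher (5.28% of all probe sets were) and 0 lower, with a median difference of 0.28 (range -0.024 for Rab39b to 0.50 for Rab2a). Rab1a was at 10.87, 10.79, 11.00 and 10.98 on low replicates 1 to 4 and at 11.29, 11.40, 11.35 and 11.40 on high replicates 1 to 4. All high arrays were thus above all low arrays, the difference was 0.45 (SE 0.082, 1.37-fold, adjusted p = 0.0117), and the call was kept on leaving out each of the 8 arrays in turn (0.41 to 0.48, highest adjusted p = 0.0422). Its paralog Rab1b was at 10.23, 10.34, 10.51 and 10.32 in the low and at 10.64, 10.94, 10.86 and 10.85 in the high fraction, without overlap (0.47, SE 0.094, 1.39-fold, adjusted p = 0.0154). The Rab1b call was lost without high replicate 2 or 3 (0.43 to 0.53, highest adjusted p = 0.0558).

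Rab2a was at 10.59, 10.83, 10.98 and 10.65 on the low arrays and at 11.05, 11.39, 11.48 and 11.12 on the high arrays. High replicates 2 and 3 were the highest and the fractions did not overlap, with a difference of 0.50 (SE 0.12, 1.41-fold, adjusted p = 0.0299); the call was lost without any 1 of 5 arrays (low replicates 1, 2 and 4, high replicates 2 and 3). Rab2b had a difference of 0.25 with an interval of -0.16 to 0.66, and high replicate 1 (7.42) lay below every low array while the other 3 high arrays (7.95 to 8.41) lay above them all. Rab6a, which acts in transport within the Golgi and back to the endoplasmic reticulum, was at 10.76 to 11.00 in the low and 11.08 to 11.18 in the high fraction, without overlap (0.28, SE 0.083), but did not pass (adjusted p = 0.0574). It was called with dim probe sets left out, with an intensity trend and robust fit, with array weights and without low replicate 3. Rab30, a Golgi Rab, had 0.32 (adjusted p = 0.102), with the fractions overlapping. Rab18, Rab19, Rab33a, Rab33b, Rab6b and Rab39b had differences from -0.024 to 0.29, none called, and Rab6b and Rab39b had means below the negative control median.

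**Figure D2:**
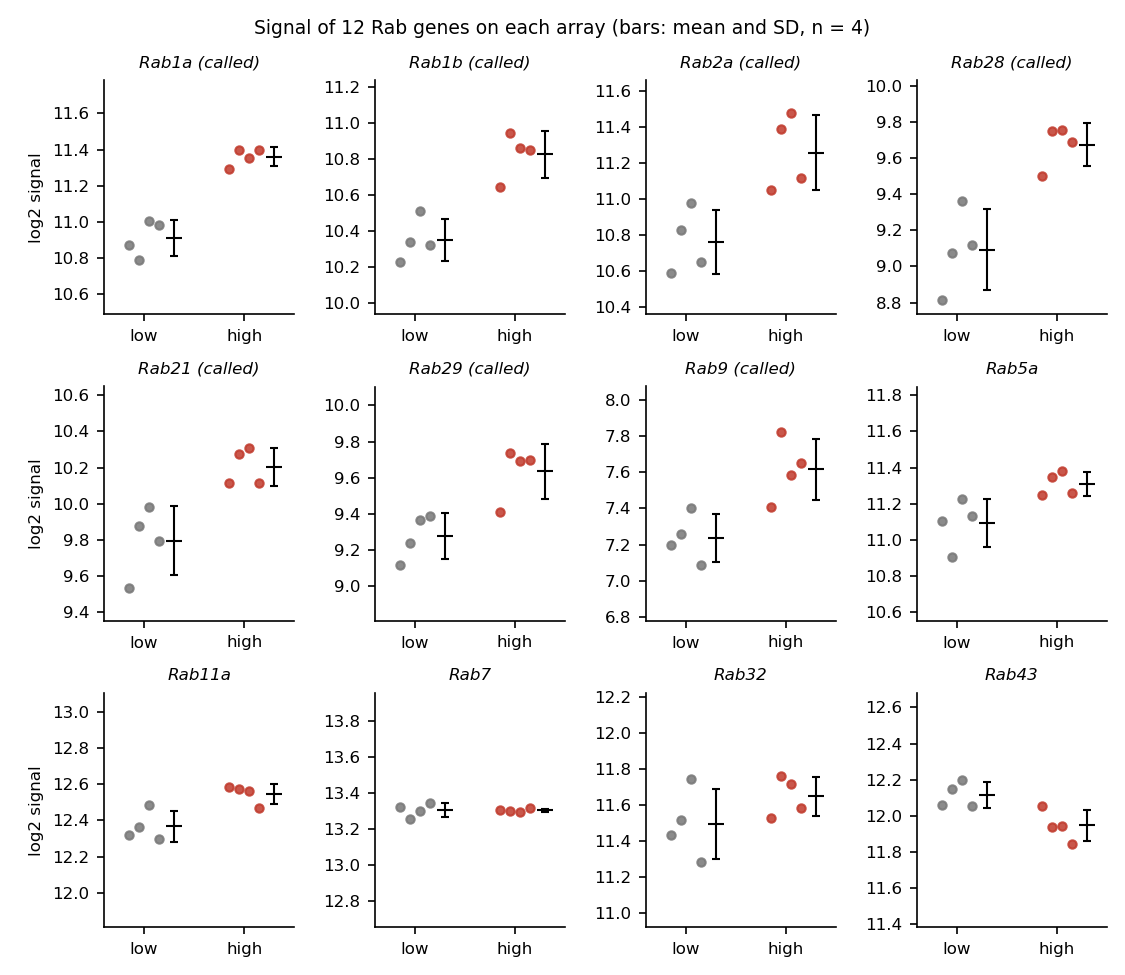
The log2 signal of 12 Rab genes on each array (points, replicates 1 to 4 from left to right) in the low and high fractions, with the mean and SD beside them (n = 4); every panel spans the same range of log2 units. In the 7 called genes all high arrays lie above all low arrays, whereas Rab7 sits at 13.26 to 13.34 on all arrays and Rab43 runs slightly lower in the high fraction.

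Of 6 early endosomal Rabs 1 was called higher and 0 lower, against 5.28% and 2.96% of all probe sets. The 1 was Rab21, which acts in endocytosis and in the traffic of integrins. Differences were positive in 5 of the 6, with a median of 0.10. This median was 0.049 without low replicate 1, 0.063 without high replicate 2, 0.16 without low replicate 3 and 0.042 after quantile normalization. Rab21 was at 9.53, 9.88, 9.98 and 9.79 on the low arrays and at 10.11, 10.28, 10.31 and 10.11 on the high arrays. The fractions did not overlap and low replicate 1 was the lowest (0.41, SE 0.11, 1.33-fold, adjusted p = 0.0366). The call was kept on 2 of 8 omissions, those of low replicate 3 and high replicate 1 (0.32 to 0.47, highest adjusted p = 0.107), and was lost after quantile normalization.

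The Rab5 paralogs, which control fusion of early endosomes, did not pass the test. Rab5a was at 11.11, 10.91, 11.22 and 11.13 in the low and at 11.25, 11.35, 11.38 and 11.26 in the high fraction. These do not overlap, but the gap is narrow and the difference of 0.22 (SE 0.089) had an adjusted p of 0.151. Rab5b was at 9.36, 9.40, 9.50 and 9.24 against 9.37, 9.38, 9.39 and 9.51 (0.034, interval -0.15 to 0.22), with full overlap. Rab5c was at 10.92, 10.77, 10.96 and 10.88 against 10.84, 10.88, 10.75 and 10.76 (-0.078, interval -0.25 to 0.10), with overlap. Differences between paralogs were not tested. Rab31 (0.13) and Rab22a (0.067), which act between the Golgi and endosomes and on early endosomes, were not called.

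Rabs of recycling and of delivery to the surface had a run of small positive differences, and 0 of 12 were called (group median 0.16). At an unadjusted p under 0.05 limma had 6 higher and 0 lower, where the shares of all probe sets are 15.3% and 10.1%. Those 6 were Rab8a (0.22), Rab8b (0.20), Rab10 (0.20), Rab11b (0.19), Rab11a (0.18) and Rab14 (0.17), with adjusted p from 0.133 to 0.188. All 6 had mean signals of 10.99 to 12.46, above the 95th percentile of the negative controls. Of all probe sets above that percentile 67.1% had a positive difference, and their median was 0.10. Rab11a, which marks recycling endosomes, was at 12.32, 12.36, 12.49 and 12.30 on the low arrays and at 12.58, 12.58, 12.56 and 12.47 on the high arrays. Its fractions overlapped through high replicate 4 and low replicate 3, while in the other 5 genes they did not overlap. Of the 12 genes of the group, 5 thus had every high array above every low array, and 0 had every high array below. Among all probe sets these shares are 9.7% and 6.37%. An intensity trend with a robust fit called Rab8a, Rab8b, Rab10, Rab11a and Rab11b. Rab4a, which acts in rapid recycling, and Rab35, which acts at the plasma membrane, had negative differences of -0.20 and -0.15 with overlapping fractions (adjusted p = 0.201 and 0.366). Rab13, Rab15, Rab17 and Rab25, the latter pair known from epithelia, lay between -0.067 and 0.16, and Rab15 was below the negative control median.

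**Figure D3:**
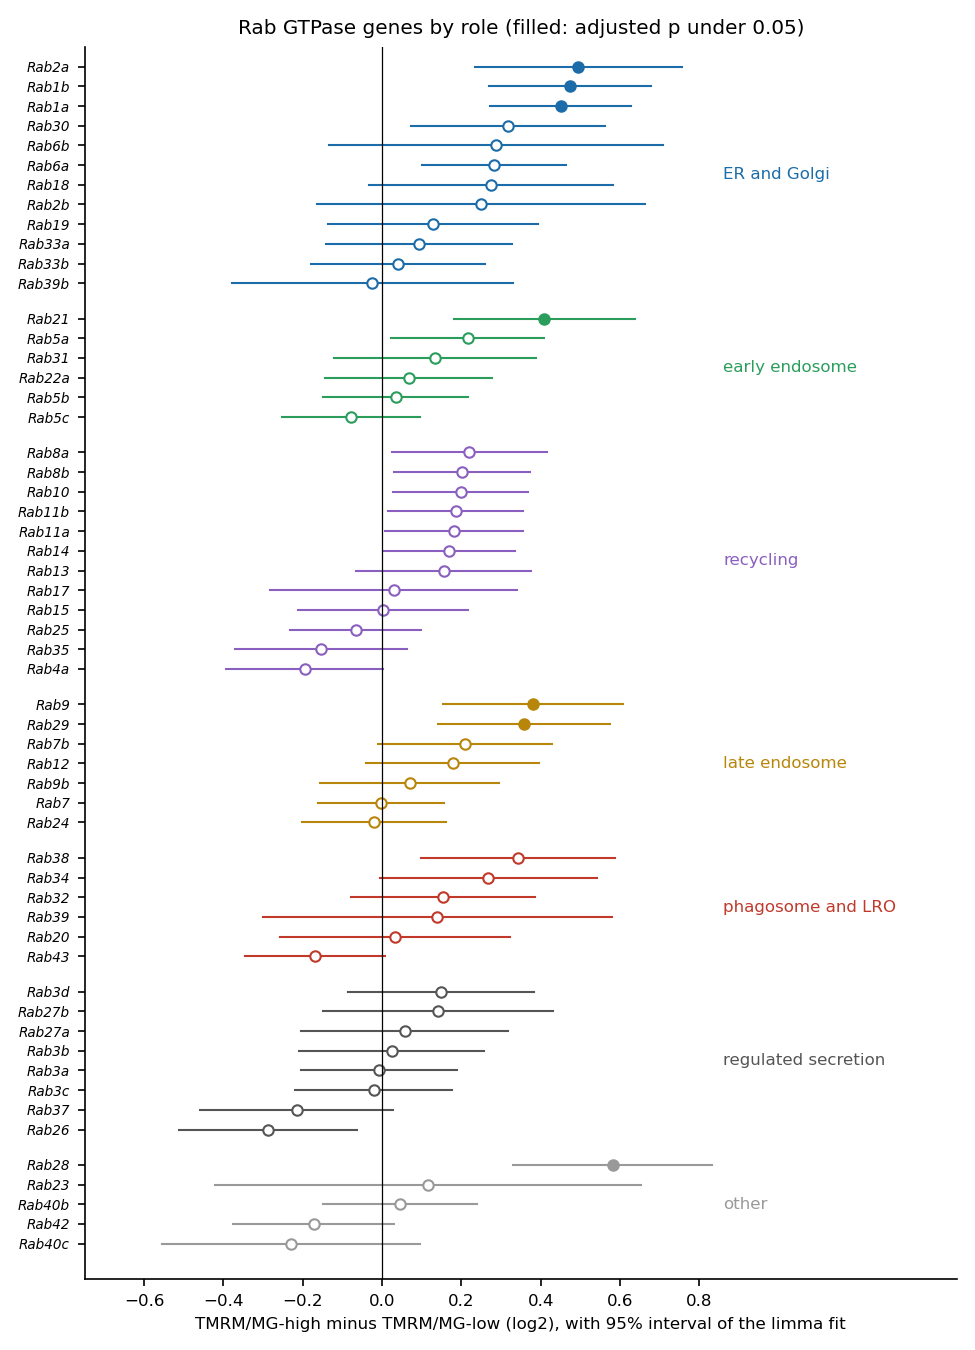
Log2 difference, high minus low fraction, of each of the 56 Rab genes (points; filled where limma's adjusted p was under 0.05) with its 95% interval (lines), ordered by role from the endoplasmic reticulum and Golgi to the surface (LRO, lysosome-related organelle). The 3 filled points of the top group lie at 0.45 to 0.50, and the 6 recycling Rabs at 0.17 to 0.22 have intervals that begin just above 0.

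Among Rabs grouped as late endosomal, Rab9 and Rab29 rose and Rab7 did not differ beyond its error. Of the 7, 2 were called higher (5.28% of all probe sets were) and 0 lower (2.96%), with a group median of 0.18. Each gene was given 1 role, and Rab29 could also be placed with the Golgi Rabs. Rab9, which returns mannose 6-phosphate receptors from late endosomes to the Golgi, was at 7.20, 7.26, 7.40 and 7.09 in the low and at 7.41, 7.82, 7.58 and 7.65 in the high fraction. High replicate 1 lay just above low replicate 3, so the separation is narrow (0.38, SE 0.10, 1.30-fold, adjusted p = 0.0458), and both means lay between the negative control median and 95th percentile. Rab29, which acts at the Golgi and stressed lysosomes and recruits the kinase LRRK2, was at 9.12, 9.24, 9.37 and 9.39 against 9.41, 9.74, 9.69 and 9.70 (0.36, SE 0.10, 1.28-fold, adjusted p = 0.0475). Here too high replicate 1 was the array nearest the low fraction. The calls of both genes were kept on 2 of 8 omissions, those of low replicate 3 and high replicate 1 (highest adjusted p = 0.136 for each), and were lost on quantile normalization and on centring of array medians, as was that of Rab9 with the replicate number as a block.

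Rab7, the Rab of late endosome to lysosome fusion, was at 13.32, 13.26, 13.30 and 13.34 on the low arrays and at 13.31, 13.30, 13.29 and 13.32 on the high arrays. Its difference was -0.0027 (SE 0.072, interval -0.16 to 0.16). Its mean level was at the 99.8th percentile of all tested probe sets, and whether signals this high still follow RNA amount was not tested. Rab7b (0.21, interval -0.010 to 0.43), Rab12 (0.18), Rab9b (0.070) and Rab24 (-0.020) were not called, and Rab9b was below the negative control median.

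No Rab of phagosomes and lysosome-related organelles was called (0 of 6, group median 0.15), and Rab43 had a negative difference. Of all probe sets 5.28% were called higher and 2.96% lower. At an unadjusted p under 0.05 limma had 1 higher, Rab38, and 0 lower, where the shares of all probe sets are 15.3% and 10.1%. The group median was 0.067, 0.087 and 0.075 without low replicate 4, low replicate 1 and high replicate 2, and 0.26 without low replicate 3. Rab43 was at 12.06, 12.15, 12.20 and 12.05 in the low and at 12.06, 11.94, 11.94 and 11.85 in the high fraction. High replicate 1 was level with the low arrays and the other 3 high arrays lay below all of them, with a difference of -0.17 (SE 0.081, interval -0.35 to 0.0082, adjusted p = 0.218). Over the alternatives the Rab43 difference ran from -0.25 after quantile normalization to -0.049 with the spike-in covariate, and it was not called under any of them. Rab38, which with Rab32 delivers cargo to lysosome-related organelles, was at 8.40, 8.46, 8.64 and 8.62 against 8.60, 9.07, 8.81 and 9.01. It had the largest difference of this group (0.34, SE 0.11, adjusted p = 0.0805), overlapped through high replicate 1, and was called without that array (0.43, adjusted p = 0.0296; over its alternatives the adjusted p ran from 0.0296 to 1, and the difference was -0.11 with the spike-in covariate).

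Rab32 was at 11.43, 11.52, 11.75 and 11.28 in the low and at 11.53, 11.76, 11.72 and 11.58 in the high fraction (0.15, interval -0.078 to 0.39), with overlap. Rab34, which acts in phagosome maturation, was at 7.14, 6.67, 7.16 and 7.14 against 7.11, 7.51, 7.28 and 7.30 (0.27, adjusted p = 0.204), and low replicate 2 was the lowest array. Rab39, a phagosomal and late endosomal Rab, was at 6.58, 7.52, 7.53 and 6.85 against 7.16, 7.57, 7.04 and 7.26 (0.14, interval -0.30 to 0.58); its low arrays differ among themselves by more than the fractions do. Rab20 differed by 0.032.

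Rabs of regulated secretion showed no common direction, with 4 positive and 4 negative differences and a median of 0.0082 (0.070 without high replicate 4). Of the 8, 0 were called, against 5.28% of all probe sets called higher and 2.96% lower. At an unadjusted p under 0.05 limma had 0 higher and 1 lower, where the shares of all probe sets are 15.3% and 10.1%. Rab27a, which docks secretory granules and lysosome-related organelles, was at 9.49, 9.13, 9.35 and 8.97 in the low and at 9.25, 9.41, 9.40 and 9.11 in the high fraction, with full overlap (0.057, interval -0.20 to 0.32). Rab26, a secretory granule Rab, had the most negative difference of all 56 genes: it was at 8.72, 8.99, 8.65 and 8.68 against 8.59, 8.55, 8.49 and 8.27. These do not overlap, but the gap is narrow and the gene did not pass (-0.29, SE 0.10, adjusted p = 0.105). Rab37 was at -0.22, Rab3d at 0.15, Rab27b at 0.14, and Rab3a, Rab3b and Rab3c, Rabs of synaptic and endocrine secretion, at -0.0078, 0.024 and -0.021; Rab3c was below the negative control median.

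Of the 5 other Rabs 1 was called higher (5.28% of all probe sets were) and 0 lower. This was Rab28, which is associated with cilia. Rab28 was at 8.82, 9.08, 9.36 and 9.12 on the low arrays and at 9.50, 9.75, 9.75 and 9.69 on the high arrays. All high arrays were above all low arrays, and the difference of 0.58 (SE 0.11, 1.5-fold, adjusted p = 0.0152) was the largest among the Rab genes. The call was lost without high replicate 2 or 3 (0.49 to 0.67, highest adjusted p = 0.0532). Rab23, a regulator of hedgehog signalling (0.12), the ubiquitin ligase adaptors Rab40b (0.046) and Rab40c (-0.23), and Rab42 (-0.17) were not called, and Rab23 was below the negative control median.

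**Figure D4:**
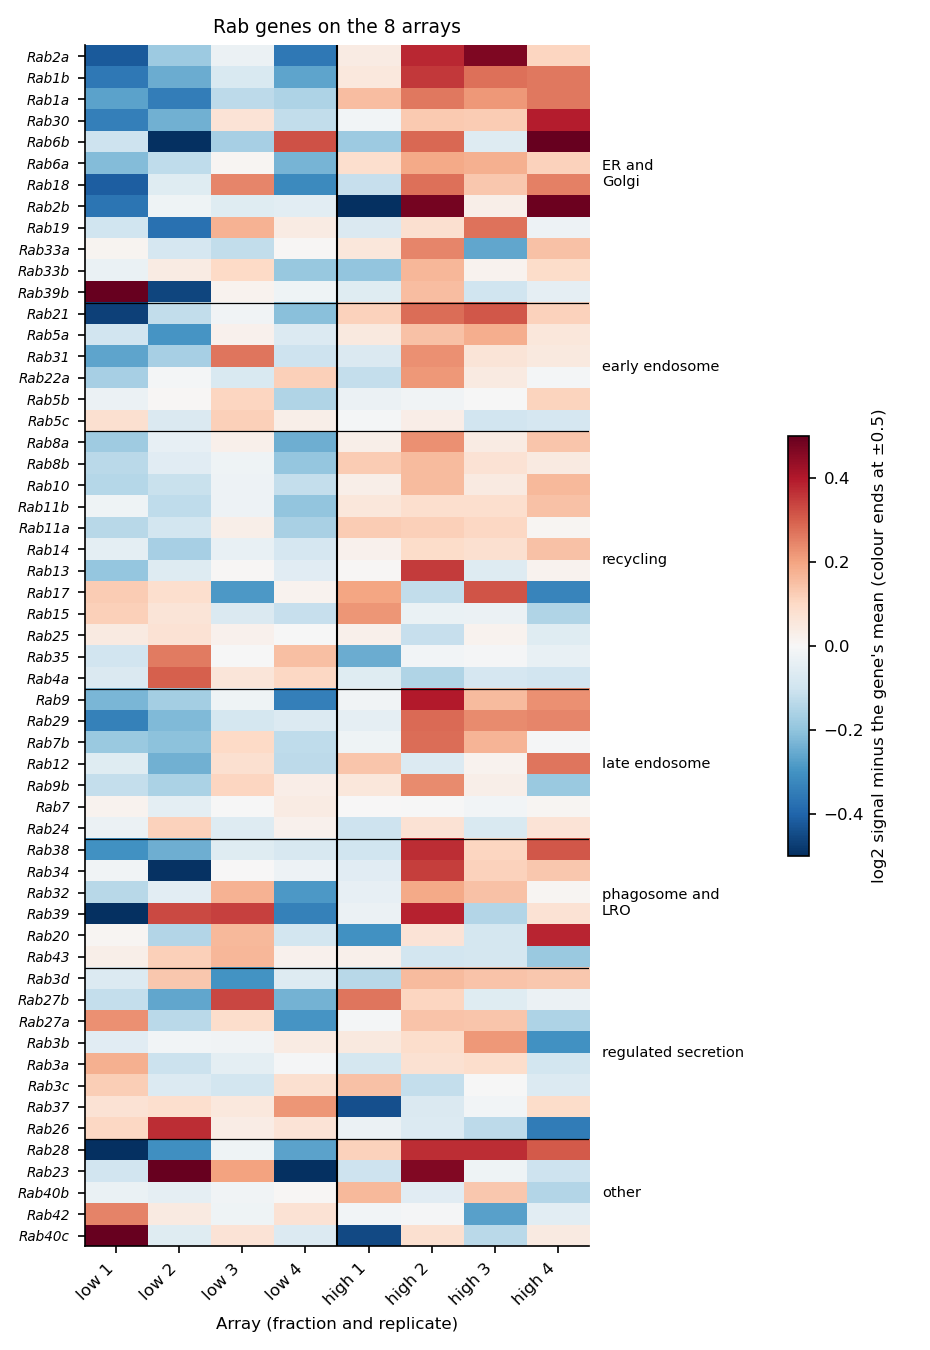
Each cell is the log2 signal of a Rab gene (rows, ordered by role and difference) on an array (columns, low then high fraction) minus the gene's mean over the 8 arrays; the colour ends at ±0.5 and black lines part the roles and the fractions. For the 7 called genes every high cell is above the highest low cell of its row, while cells of both colours fall in both fractions for most secretory Rabs.

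The arrays were not equally far apart. The mean over the 12 Rabs of the endoplasmic reticulum and Golgi was 9.15, 9.09, 9.32 and 9.21 on low replicates 1 to 4 and 9.26, 9.57, 9.43 and 9.54 on high replicates 1 to 4, so that high replicate 1 lay below low replicate 3. The mean over the 12 recycling Rabs was 9.81 to 9.89 on the low and 9.88 to 9.95 on the high arrays, and that over the 8 secretory Rabs was 8.03 to 8.11 and 7.95 to 8.10. Of the high arrays, replicate 1 was nearest the low fraction in the endoplasmic reticulum and Golgi mean and in the spike-in level, which was 6.96 there and 5.99 to 6.19 on the other high arrays, whereas the recycling mean was lowest on high replicate 4; whether it bears on the Rab values was not tested.

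Regulators and effectors of Rabs went both ways. Of 144 measured genes, from a list of 158 symbols drawn up with earlier results of these data known, 6 were higher (4.17%, against 5.28% of all probe sets) and 7 lower (4.86%, against 2.96%), with a median of 0.030. After quantile normalization the counts were 4 and 10. Without 1 array they ranged from 0 to 14 higher and from 3 to 7 lower, with 0 higher without low replicate 2, high replicate 2 or high replicate 3 (18 to 21 at an unadjusted p under 0.05 by limma), 1 without low replicate 1 or high replicate 4, 3 without low replicate 4 and 14 without low replicate 3; those lower were 4 without low replicate 2 and 3 without high replicate 2 or 3.

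In the class of prenylation and GDI proteins, which supply and retrieve membrane-bound Rabs, 0 of 6 were called (median 0.24). At an unadjusted p under 0.05 limma had 4 higher and 0 lower, where the shares of all probe sets are 15.3% and 10.1%. Gdi2, a GDI, had the smallest p, at 11.94 to 12.16 in the low and 12.22 to 12.33 in the high fraction (0.26, adjusted p = 0.0712), without overlap. Of 33 GEF genes 2 were higher (6.06%, against 5.28% of all probe sets) and 2 lower (6.06%, against 2.96%). Ccz1, which with Mon1 proteins activates Rab7, was at 10.58 to 10.85 against 11.00 to 11.22 (0.34, SE 0.092, adjusted p = 0.0461). Ric1, which with Rgp1 activates Rab6, was at 8.37 to 8.55 against 8.72 to 8.84 (0.32, SE 0.078, adjusted p = 0.0306). Sbf1, a DENN domain protein, fell by 0.45, from 11.33 to 11.49 on the low to 10.92 to 11.05 on the high arrays (SE 0.078, adjusted p = 0.0105), and Dennd1c, of the family that activates Rab35, fell by 0.39 (adjusted p = 0.0201). In these 4 genes the fractions did not overlap, and only the Sbf1 call was kept on all 8 omissions. The Dennd1c call was kept on 5 of 8, that of Ric1 on 3 and that of Ccz1 on 2 (highest adjusted p = 0.137 by limma). Ccz1 also lost its call on quantile normalization and on centring of medians.

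Of 39 genes with GAP domains or subunits, 2 were higher (5.13%, against 5.28% of all probe sets) and 1 lower (2.56%, against 2.96%). Tbc1d7, which is also a subunit of the TSC complex, was at 6.81 to 7.20 in the low and 7.21 to 7.73 in the high fraction (0.60, SE 0.13, adjusted p = 0.0191), and Tbc1d15, a GAP of Rab7, at 7.11 to 7.51 against 7.65 to 7.95 (0.42, adjusted p = 0.0314). Tbc1d17 fell by 0.41 (adjusted p = 0.0149), and in none of the 3 did the fractions overlap. Each of the 3 calls was lost without high replicate 2 or without high replicate 3. The Tbc1d17 call was kept on 6 of 8 omissions, and those of Tbc1d7 and Tbc1d15 on 3 of 8 each.

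Effectors of early endosomes had 1 higher and 1 lower of 11 (9.09% each, against 5.28% and 2.96% of all probe sets). Rabep2, which binds Rab5, fell by 0.65, from 9.78 to 10.02 on the low to 9.01 to 9.54 on the high arrays (SE 0.12, adjusted p = 0.0137), a call kept on all 8 omissions. Ankfy1, another Rab5 effector, was higher by 0.46 (SE 0.12, adjusted p = 0.0427), although low replicate 3 (9.49) lay above high replicate 1 (9.45). Its call was kept on 2 of 8 omissions (highest adjusted p = 0.115) and lost on quantile normalization and on centring of medians. Of 14 late endosomal effectors 1 was called higher (7.14%, against 5.28% of all probe sets) and 0 lower. This was Vps41, a subunit of the HOPS tether that binds Rab7, at 9.75 to 9.96 against 10.09 to 10.32 (0.39, SE 0.086, adjusted p = 0.0220). That call was kept on 3 of 8 omissions and lost without low replicate 1 or 2 or high replicate 2, 3 or 4.

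Effectors of recycling and secretion had 0 higher and 3 lower (9.09%) of 33, against 5.28% and 2.96% of all probe sets. At an unadjusted p under 0.05 limma had 5 higher and 4 lower, where the shares of all probe sets are 15.3% and 10.1%. Exoc6b, a subunit of the exocyst that tethers vesicles to the plasma membrane, had the largest difference of the 144 genes: it was at 11.30, 11.15, 11.05 and 11.01 in the low and at 10.09, 10.50, 10.44 and 10.44 in the high fraction. It fell by 0.76 without overlap (SE 0.11, adjusted p = 0.00391), and the call was kept on all 8 omissions. Ehbp1 and Ehbp1l1, which bind Rab8 and Rab10, fell by 0.53 (adjusted p = 0.0489, fractions overlapping) and 0.39 (adjusted p = 0.0338); each kept its call on 1 of 8 omissions, and both lost it with the replicate number as a block. Of 8 Golgi effectors 0 were called. By limma 3 were higher and 2 lower at an unadjusted p under 0.05, again beside 15.3% and 10.1% of all probe sets. The smallest p was that of Uso1, a tether bound by Rab1, at 10.86 to 11.12 against 11.16 to 11.32 (0.29, adjusted p = 0.0592).

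**Figure D5:**
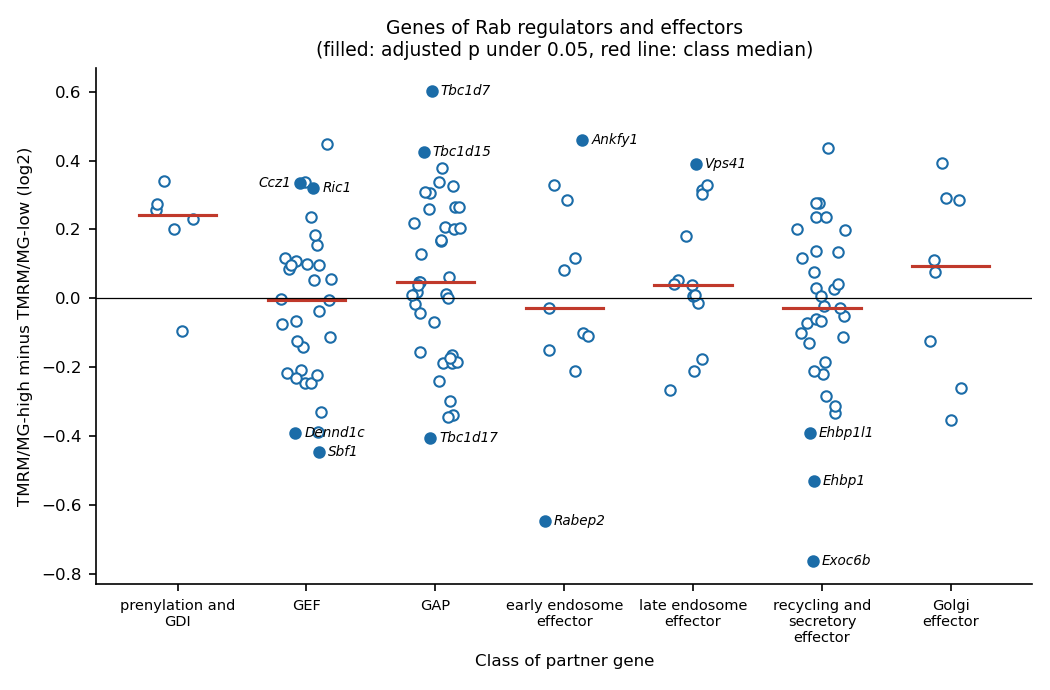
Log2 difference, high minus low fraction, of 144 genes of Rab regulators and effectors by class (points; filled and named where limma's adjusted p was under 0.05), with the class median as a red line. Prenylation and GDI genes have a median of 0.24 with none called, while GEF, GAP and effector genes spread on both sides of 0, from -0.76 for Exoc6b to 0.60 for Tbc1d7.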

How the data were processed

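The values are log2 signals as deposited by the authors, made by RMA in Affymetrix Expression Console 1.1 per the submitters' processing notes, from target made with the Whole Transcript Plus kit per the labels' protocols. RMA corrects background and gives all arrays 1 distribution of probe signals and so takes out a shift common to most transcripts. The build behind the array design is not given in the sources used. Of 28846 rows 6640 control probe sets were left out. Genes were named from the platform annotation, and all 56 Rab symbols matched the RefSeq table by gene ID. Close paralogs such as Rab1a and Rab1b may share probes. Precision is limited by the number of arrays.

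The fractions were compared across all 22206 probe sets with limma 3.58.1 (lmFit, then eBayes) under R 4.3.3, two-sided and without a block. Calls were made at 0.05 after Benjamini-Hochberg adjustment. A difference is the high mean minus the low mean on the log2 scale, SE is its moderated standard error, and intervals are 95%. The members, role groups, partner list and alternatives were chosen with earlier results of these data known. Every Rab gene could be named, with array values for called genes and for Rab5a, Rab5b, Rab5c, Rab7, Rab11a, Rab27a, Rab32, Rab34, Rab38, Rab39 and Rab43. Array values of Rab26 and ranges for Rab6a were added after their values were seen. Of partners, up to 4 called genes a class with the smallest p were named, or else the 1 with the smallest p. Alternatives were a block on replicate number, another quantile normalization, centring of medians, leaving out probe sets with a mean under the negative control median, a robust fit with an intensity trend, weights for arrays, the spike-in covariate, averaging of each gene's probe sets, other thresholds and leaving out each array.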

Additional observations from a re-analysis of the deposited data

Results flagged for a closer look

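Within a group of 4 arrays, 1 array stood apart from the other 3 in 7 of the 112 combinations of Rab gene and fraction, by Dixon's ratio of the gap to the range at the 95% level. Chance flags about 1 in 20 such groups. High replicate 1 was the lowest in 3: Rab29 (9.41, next 9.69), Rab35 (9.72, next 9.93) and Rab3d (8.55, next 8.83). Low replicate 1 was the lowest in Rab2b (7.55, next 7.86), and low replicate 2 in Rab34 (6.67, next 7.14). High replicate 2 was the highest in Rab23 (7.07, next 6.59), and high replicate 3 the lowest in Rab42 (7.88, next 8.10).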

How the results depend on the processing

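The count of Rab genes called higher was 4 after quantile normalization, 14 with an intensity trend and robust fit, 0 with the spike-in covariate and 0 at an adjusted p under 0.01, and 1 to 9 on leaving out 1 array; none was called lower under any alternative. Partner genes called higher were 14 with the trend and robust fit, 11 with array weights, 0 with the spike-in covariate, 0 at 0.01 and 13 at 0.1, and 0 to 14 without 1 array. Those called lower were 0, 1 and 13 with the covariate, at 0.01 and at 0.1 (with the covariate limma had 1 partner gene higher and 10 lower at an unadjusted p under 0.05), and 3 to 7 without 1 array. With the trend and robust fit 10 were called lower, as after quantile normalization. With the spike-in covariate the median Rab difference was 0.00579, and the role medians were -0.099 (endoplasmic reticulum and Golgi), -0.0582 (early endosome), -0.048 (late endosome), -0.0796 (phagosome) and 0.11 (recycling). The recycling median was 0.095 after quantile normalization. Without 1 array the median Rab difference ranged from 0.077 to 0.19, and the role medians from 0.20 to 0.37 (endoplasmic reticulum and Golgi), 0.049 to 0.16 (early endosome), 0.13 to 0.23 (late endosome), 0.067 to 0.26 (phagosome), 0.12 to 0.18 (recycling), -0.031 to 0.070 (secretion) and -0.16 to 0.10 (other Rabs). Rab29 turned to -0.062 with the covariate, the 1 called Rab gene to change sign. The spike-in level separates the fractions, as every high array lies below every low array; the cause of these changes was not tested. Of the 49 uncalled Rab genes 30 changed sign under at least 1 alternative, 16 of them only with the covariate.

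The replicate numbers shared by the fractions did not clearly pair the arrays, which does not show that pairing is absent. Deviations of same-numbered arrays from their group means correlated at 0.27, 0.055, 0.015 and 0.039, and 3 of 8 arrays correlated best with their own number. With the replicate number as a block 6 Rab genes were higher and 0 lower, and 6 partner genes were higher and 5 lower. Dim signal limits Rab6b, Rab39b, Rab9b, Rab15, Rab3c and Rab23, whose means lay below the negative control median.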
